A study of Mus musculus with 8 samples.

Results

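Nfkbia and its relatives set the level of NF-kappa-B signalling, and their DNA methylation was examined here in mouse nephron progenitor cells, the kidney stem cell pool from which nephrons form. A CpG was kept where each of the 8 libraries covered it with 10 or more reads. Of 441994 such autosomal CpGs, 237 lay in the 7 genes Nfkbia, Nfkbib, Nfkbie, Nfkb1, Nfkb2, Rela and Relb or within 5 kb of either end. They filled 17 of 36513 tiles, which are fixed 1 kb stretches with at least 3 such CpGs. Nfkbia was chosen by the measured diet difference of its gene-start window, so its methylation values by diet are given as a description without a test. The other 6 genes were added as members of the same family.

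The libraries came from reduced representation bisulfite sequencing, a method that samples CpG-dense DNA. Bisulfite converts unmethylated cytosine, so the methylation level of a CpG is the percent of its reads that kept the cytosine. The cells were sorted by green fluorescence from kidneys of CD1 outbred embryos at E17.5, all heterozygous for the transgene Tg(Six2-EGFP/cre) (Six2 Cre+/tg), in which Six2 sequences drive the reporter. The 4 restricted libraries came from embryos of dams given 70% of the average daily intake during pregnancy, and the 4 unrestricted libraries from dams without food restriction. In both groups wild-type CD1 dams and Six2 Cre+/tg sires were 8 to 10 weeks old at mating and embryos were not separated by sex. Whether 1 litter or a pool went into a library is not stated, so the p-values rest on the spread among these 8 libraries, which may be technical.

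NF-kappa-B is a family of transcription factors that act as dimers. Rela and Relb carry a transactivation domain, whereas Nfkb1 and Nfkb2 encode the precursors p105 and p100 of the DNA-binding subunits p50 and p52. The inhibitor proteins encoded by Nfkbia, Nfkbib and Nfkbie hold dimers in the cytoplasm until an upstream kinase marks them for degradation. Nfkbia is itself a target of NF-kappa-B, which closes a negative feedback loop used in inflammation and cell survival.

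Depth, as read counts summed over all covered cytosines, ranged from 16045992 to 37305007 per library, with a median of 20 to 44 reads per shared CpG. Here and below, a sum of reads over CpGs counts a read once at each CpG it covers. In restricted libraries 1 and 2 the read-weighted mean level over all shared CpGs differed from the unweighted mean by -2.24 and -3.28 percentage points, so that reads leaned to unmethylated CpGs, against -0.575 to 0.817 points in the other 6 libraries. The labelled cell type could be checked only through gene-start methylation: the 4 measured progenitor markers (Six2, Pax2, Sall1 and Wt1 of 8 listed) averaged 0.0598% ± 0.0245 in the restricted and 0.0420% ± 0.0132 in the unrestricted group (SD, n = 4 each). The measured windows of stroma, podocyte, tubule, endothelium and blood markers were also under 5%, so this check does not tell the cell types apart. Of the ureteric bud markers, the window of Wnt11 was at 0.212% ± 0.183 and 0% and that of Gata3 at 0.445% ± 0.243 and 0.0772% ± 0.154, with groups that overlapped, and neither passed the diet test adjusted over all windows. Their part in the results below was not tested.

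The Nfkbia gene lies on the minus strand of chromosome 12 (55489409 to 55492647, mm10). Its gene-start window spans 1000 bp before and 500 bp after the listed start (55492148 to 55493647). The lncRNA model Gm36634 starts on the plus strand at 55493295, 648 bp away, and runs to 55499711, so the outer end of the window lies inside Gm36634. Of the 21 shared CpGs of the window, 15 lie between both starts and 6 lie 46 to 350 bp inside Gm36634. The reference sequence before each start is printed because the contrast between these stretches carries the result. Capitals mark the CpGs of the shared set, and both sequences are from RefSeq (GRCm38), 5′ to 3′ on the strand of the gene.
Nfkbia, chr12:55492648-55492897, minus strand: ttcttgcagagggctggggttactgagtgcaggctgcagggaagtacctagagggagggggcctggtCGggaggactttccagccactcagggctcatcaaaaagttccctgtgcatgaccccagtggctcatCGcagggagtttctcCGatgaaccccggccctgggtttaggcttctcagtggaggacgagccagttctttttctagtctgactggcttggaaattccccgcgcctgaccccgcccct
Gm36634, chr12:55493045-55493344, plus strand: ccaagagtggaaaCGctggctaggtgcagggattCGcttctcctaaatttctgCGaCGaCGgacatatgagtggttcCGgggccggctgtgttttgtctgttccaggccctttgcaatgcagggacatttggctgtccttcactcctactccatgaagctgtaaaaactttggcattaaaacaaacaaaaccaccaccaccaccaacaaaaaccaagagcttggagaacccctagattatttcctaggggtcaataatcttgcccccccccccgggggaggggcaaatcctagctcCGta

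The printed Nfkbia stretch holds 3 shared CpGs and was at 0% in each of the 8 libraries at all 3. The Gm36634 stretch holds 7, of which the last lies 46 bp inside the lncRNA. It is the first of the 6 CpGs inside Gm36634 and was itself low, at a mean level of 3.76%. The consensus of the kappa-B site, the sequence bound by NF-kappa-B dimers, was searched on both strands. It matched the Nfkbia promoter once, as ggaaattccc at chr12:55492667-55492676, whose far edge is 29 bp before the start, 72 bp from the nearest shared CpG. The printed Gm36634 stretch holds the match ggagaacccc at chr12:55493267-55493276. Of 27025 promoters of this length, 8.18% hold a match. The first listed promoter of Nfkb2 holds the overlapping matches gggaattccc and ggaattcccc and a further match ggggctttcc, and that of Nfkbie holds gggggattcc. A match is a stretch of letters and not a measured binding site.

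The 21 CpGs of the Nfkbia window fell into an unmethylated and a methylated stretch in both diet groups. Between the starts the mean level was 0.343% ± 0.190 in the restricted and 0.287% ± 0.339 in the unrestricted group (SD, n = 4 each), and 7 of the 15 CpGs had no methylated read in any library. Inside Gm36634 it was 40.6% ± 4.63 and 40.7% ± 9.21. By library, these 6 CpGs were at 34.6%, 39.5%, 42.9% and 45.3% with restriction and at 50.4%, 33.3%, 32.4% and 46.8% without. The level climbed from 1.79% ± 3.57 and 5.74% ± 1.69 at the first of these CpGs (55493341) through 24.2% ± 6.36 and 31.6% ± 15 at 55493414 and 38.3% ± 11.3 and 45.3% ± 13.2 at 55493425 to 70.6% ± 17.8 and 65.3% ± 16.1 at 55493437. The outermost pair stood at 50.6% ± 18.8 and 47.8% ± 4.35 (55493643) and at 61.2% ± 8.65 and 61.0% ± 8.89 (55493645). These 6 CpGs held 500 of the 519 methylated reads of the window but only 19.8% of its reads.

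**Figure D1:**
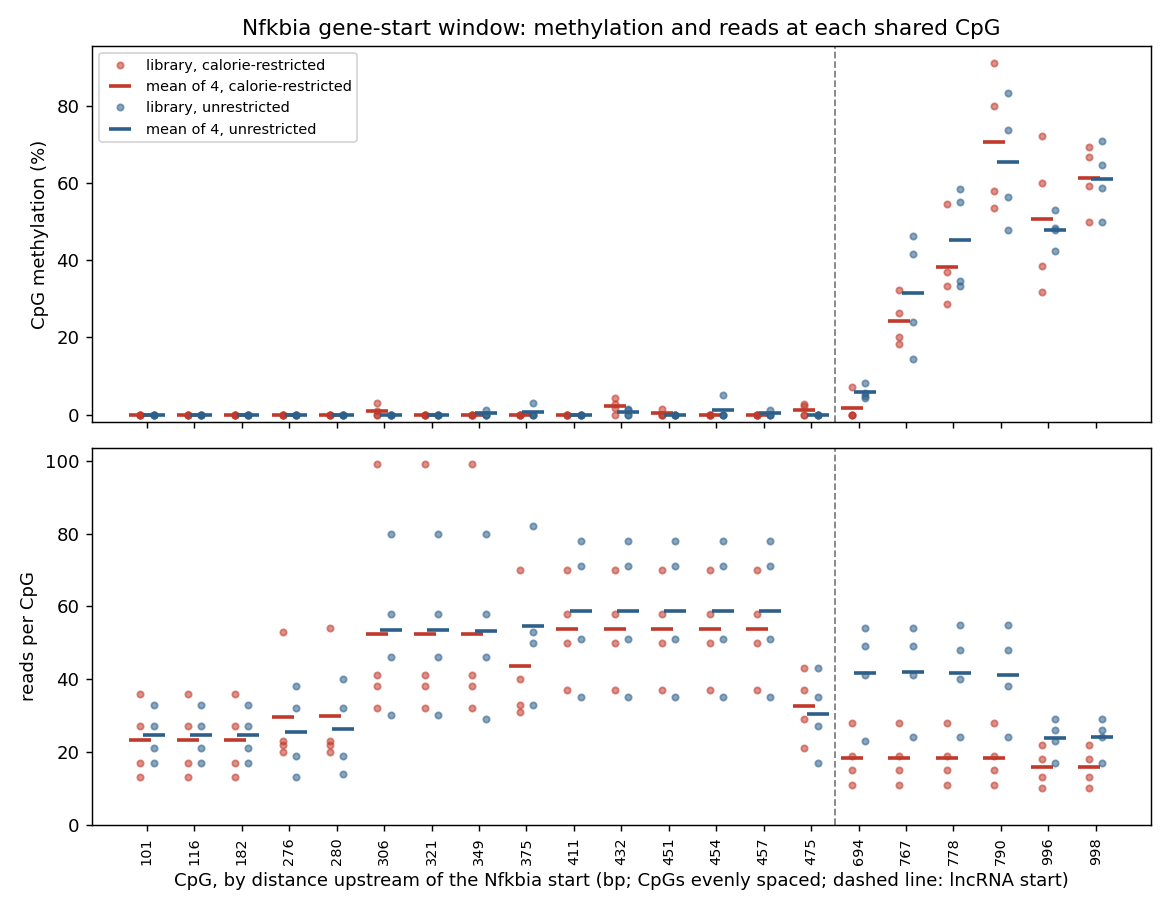
Methylation level (top, percent) and read number (bottom) at the 21 shared CpGs of the Nfkbia window, ordered by distance upstream of the Nfkbia start in bp, with 1 point per library, a bar for the mean of 4 libraries, and a dashed line at the start of Gm36634. Levels of both diet groups overlap at all 21 CpGs, and so do the raw read numbers over the 4 CpGs just past the line (11 to 28 reads per CpG in the restricted and 23.8 to 54.5 in the unrestricted libraries).

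With all reads of the window pooled, the level was 5.31%, 5.98%, 6.88% and 6% in restricted libraries 1 to 4. It was 9.45%, 8.60%, 12.2% and 9.70% in unrestricted libraries 1 to 4. The highest restricted value was under the lowest unrestricted one, and the means (6.04% ± 0.645 and 10.0% ± 1.57) differed by -3.96 percentage points. This is the value by which the gene was chosen. Over all genes 0.133% of 11313 tested windows were called, that is, had an adjusted p under 0.05 in a logistic model of methylated reads with diet as its term.

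No single CpG separated the groups in that way. At each of the 21 CpGs the ranges of both groups overlapped. At 7 of them no library had a methylated read, so these could not differ. Over all genes 0.0997% of 191637 tested CpGs were called, which is a different measure. The share of all CpGs whose groups do not overlap is not given here. The restricted mean was lower at 7 CpGs, 3 of them among the 6 inside Gm36634, and the other 3 of these 6 had the higher mean in the restricted group. The largest gap, -7.43 points at 55493414, rested on levels of 32.1%, 20.0%, 26.3% and 18.2% in the restricted libraries against 41.7%, 24.1%, 14.3% and 46.3% in the unrestricted ones, and the unrestricted libraries held both the lowest and the highest of the 8. The read numbers were small: restricted library 4 had 10 methylated of 11 reads at 55493437, an exact 95% binomial interval of 58.7 to 99.8% that covers counting error only.

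The groups did separate in the share of the window's reads that fell on the methylated stretch. This share enters the pooled level by which the gene was chosen, so its separation is given as a description. In restricted libraries 1 to 4 the CpGs inside Gm36634 took 13.8%, 14.7%, 15.4% and 12.8% of the reads. In unrestricted libraries 1 to 4 they took 18.8%, 25.5%, 37.4% and 19.4%. Every restricted share lay under every unrestricted one (14.2% ± 1.13 and 25.3% ± 8.63). Over all shared CpGs the read-weighted minus unweighted level was -2.24, -3.28, 0.0231 and -0.575 points in restricted libraries 1 to 4 and -0.351 to 0.817 points in the unrestricted ones. Its part in the read shares was not tested.

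The difference of -3.96 points can be split into a part from CpG levels and a part from read shares. With each CpG weighted by its mean share of the reads over the 8 libraries, the window level was 8.03% ± 0.693 and 8.38% ± 1.72, a difference of -0.343 points. That small mean hides libraries that went both ways. At common read shares unrestricted libraries 1 to 4 were at 9.83%, 6.83%, 6.94% and 9.91%, and the restricted ones at 7.29 to 8.94%. Unrestricted libraries 1 and 4 lay above and 2 and 3 below every restricted library. The remaining -3.61 points of the mean difference, 91.3% of it, came from unequal read shares. A read-share part at least this large, in either direction, occurred in 22 of 11313 tested windows (0.194%), Nfkbia included. With every CpG held at its mean level over the 8 libraries, the read shares alone gave 6.15% ± 0.494 and 10.3% ± 3.21 (-4.12 points). With equal weight per CpG the difference was -0.410 points. This split was chosen after the values were seen. By CpG, those inside Gm36634 added -4.03 points to the pooled difference and those between the starts added 0.0761 points, and the CpG at 55493437 added most, -1.25 points, although its mean level was higher in the restricted group.

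**Figure D2:**
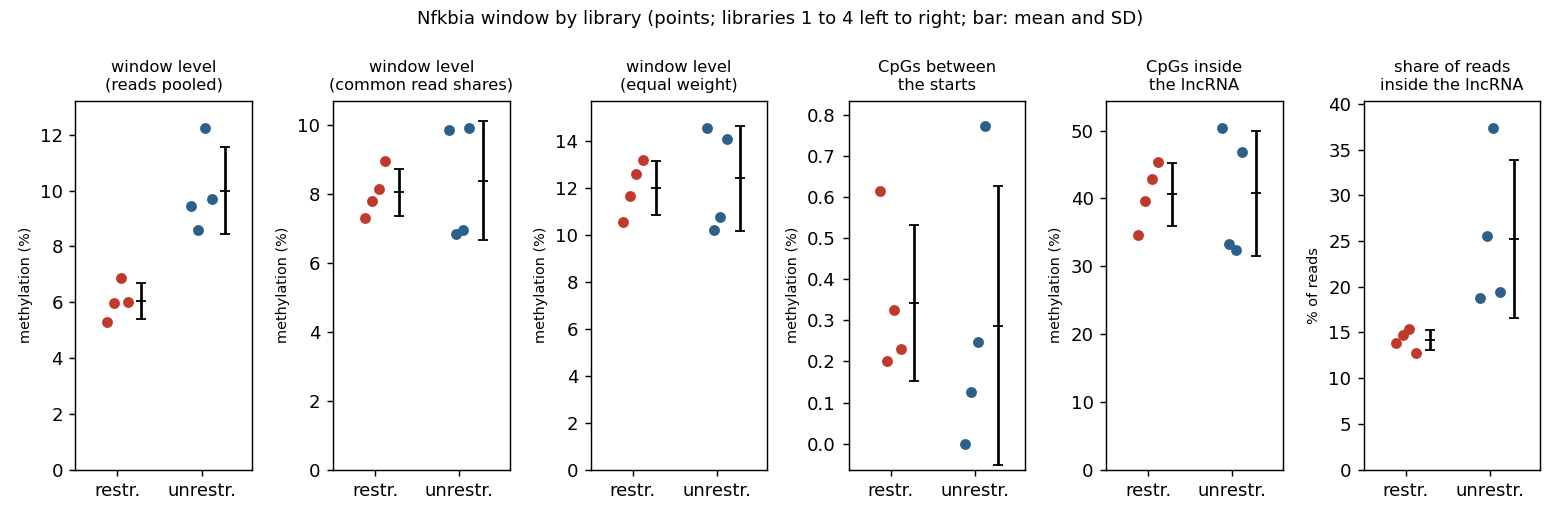
The Nfkbia window in each library (points, libraries 1 to 4 from left to right in each group; bars: mean and SD), as percent methylation with reads pooled, at common read shares, with equal weight per CpG, over the 15 CpGs between the starts and over the 6 inside Gm36634, and as percent of the window's reads on those 6. The groups do not overlap with reads pooled (5.31 to 6.88% and 8.60 to 12.2%) and in the share of reads (12.8 to 15.4% and 18.8 to 37.4%), and overlap in the other 4 panels. The share of reads enters the pooled level by which the gene was chosen.

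The read minimum acted through the same 6 CpGs. At minimums of 5 and 10 reads the same 21 CpGs were kept, since no CpG of the gene or its flanks had 5 to 9 reads in its shallowest library. Just outside the minimum were 3 CpGs in the gene body (55490524, 55490601 and 55490631), with 1 to 17 reads and 80.7 to 92.8% methylation over all libraries. Just inside were the outermost pair, with 10 reads in restricted library 4. The 6 CpGs inside Gm36634 had only 10 or 11 reads in that library. At a minimum of 15 they were gone and 10 CpGs gave 0.432% ± 0.248 and 0.354% ± 0.410. At 20 reads 9 CpGs remained, at 0.371% ± 0.220 and 0.373% ± 0.429, a difference of -0.00167 points.

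Neighbouring CpGs covered by the same reads are not separate measurements. By read numbers that differ by at most 3 in every library, the 21 CpGs fell into 8 runs, and 4 of the 6 CpGs inside Gm36634 form 1 run. That run had 28, 15, 19 and 11 reads per CpG in restricted libraries 1 to 4 and 23.8, 54.5, 48.5 and 40.0 in the unrestricted ones. The pooled difference was -3.52 points on plus strand cytosines, where the groups did not overlap, and -4.46 points on minus strand cytosines, where they did. Inside Gm36634 alone it was 0.0961 and 2.16 points. The total number of reads on the window, per 1000000 of the read counts summed over all cytosines of the library, was 33.6 ± 2.87 and 30.1 ± 5.71, and the groups overlapped. Before scaling, this read number is the denominator of the pooled level by which the gene was chosen. Its difference of 3.45 is therefore given as a description. Without unrestricted library 1 the difference was 1.34, and without unrestricted library 4 it was 5.89. On the 6 CpGs inside Gm36634 the read number per 1000000 was 4.77 ± 0.650 and 7.63 ± 2.93, a difference of -2.86, again with overlap. On the 15 CpGs between the starts it went the other way, at 28.8 ± 2.33 and 22.5 ± 5.20, a difference of 6.30, also with overlap.

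Windows of intermediate level were few: 86.2% of 12596 windows were under 1%, and 3.18% lay between 5 and 20%, as that of Nfkbia did.

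The tiles of Nfkbia repeated this layout. The tile inside the gene (55491001 to 55492000; 10 CpGs) had no methylated read. The next (55492001 to 55493000; 8 CpGs) was at 0.183% ± 0.252 and 0.0627% ± 0.125. The tile across the Gm36634 start (55493001 to 55494000, 13 CpGs) was at 9.62% ± 0.808 and 14.6% ± 1.81, without overlap of the groups. Its CpGs all lie in the window by which the gene was chosen. The difference of -5.02 points was -0.585 points at common read shares, and over all genes 0.0177% of 33897 tested tiles were called.

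The other inhibitor genes were unmethylated at their starts. Nfkbib (chromosome 7, 28758251 to 28766644, minus strand) faces the start of Sirt2, a deacetylase gene, at 28766752. All 8 CpGs of its window lay before the Nfkbib start and inside Sirt2. They had 0 of 2935 reads methylated, summed over the CpGs. That would allow a level of up to 0.102% if each count were separate (3 reads, counting error only). All 8 CpGs had the same range of 29 to 64 reads per library, so the counts are likely not separate and the bound is higher. The 13 shared CpGs inside Nfkbib lay 2773 bp or more from its start and had mean levels of 82.4 to 97.5%. The Nfkbib tile of smallest p (28760001 to 28761000, 3 CpGs) was at 92.9% ± 4.75 in the restricted and 88.0% ± 6.16 in the unrestricted group. By library, this tile was at 93.3%, 95.1%, 86.2% and 97.0% with restriction and at 82.2%, 92.9%, 93.7% and 83.1% without, so the groups overlapped (logistic model, adjusted p = 0.773). Nfkbie (chromosome 17, 45555700 to 45563169, plus strand) had 2 methylated of 3929 reads over its 13 window CpGs, 1 each in restricted and unrestricted library 2. A second unmethylated tile at its far end (45563001 to 45564000; 10 CpGs) reached 0.526% in 1 library and 0% in the other 7. It holds the listed start of the neighbouring gene Slc35b2, which encodes a sulfate donor transporter, at 45563936. Beyond it, 2 CpGs at 45566566 and 45566592 averaged 40.0% and 76.2%.

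The genes of the DNA-binding subunits were equally low. The window of Nfkb1 (chromosome 3, 135584655 to 135691969) was placed at the end richer in CpGs, because the reference lists no start for it, and 2 of 5267 reads over 27 CpGs were methylated, both in restricted libraries. Its only highly methylated shared CpG lay past the opposite end, at 135581398, at 90.6% ± 5.70 and 85.5% ± 7.35. Nfkb2 (chromosome 19, 46300994 to 46312400) had 35 CpGs in its window. The window was at 0.403%, 0.0991%, 0.105% and 0% in restricted libraries 1 to 4 and at 0.276%, 0.305%, 0.707% and 0.0620% in unrestricted ones. The groups overlapped (adjusted p = 0.676). Of its 51 shared CpGs 50 were under 5%, the exception being 46304078 (6.92% ± 9.44 and 13.3% ± 8.91). The lncRNA 4833438C02Rik (46303585 to 46305629) spans all 51.

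Of the transactivating subunits, Rela (chromosome 19, 5637442 to 5648134) had intermediate as well as high levels inside the gene. Its window of 40 CpGs was at 0.0658% ± 0.0766 and 0.237% ± 0.183 (adjusted p = 0.676). A tile from 5640001 to 5641000, with 4 CpGs that climbed from 15.1% to 38.1%, was at 28.1%, 23.2%, 30.2% and 26.6% in restricted libraries 1 to 4 and at 23.8%, 29.2%, 25.8% and 25.3% in unrestricted ones (adjusted p = 0.899). The CpG at 5645351 stood at 97.1%. Relb (chromosome 7, 19606217 to 19629438) was at 0% at the 12 CpGs of its CpG-rich end. With 0 of 3058 reads methylated, a level of up to 0.0981% would be allowed if each count were separate. Neighbouring CpGs there had equal or similar read numbers, so Relb has a higher bound. Its other tile, of 10 CpGs inside the gene (19619001 to 19620000), was at 6.51%, 5.21%, 12.4% and 12.2% with restriction and at 5.54%, 15.5%, 9.59% and 11.9% without. The groups overlapped, with 9.09% ± 3.77 and 10.6% ± 4.19 (adjusted p = 0.773). Without unrestricted library 2 the difference of -1.56 points was 0.0644 points.

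**Figure D3:**
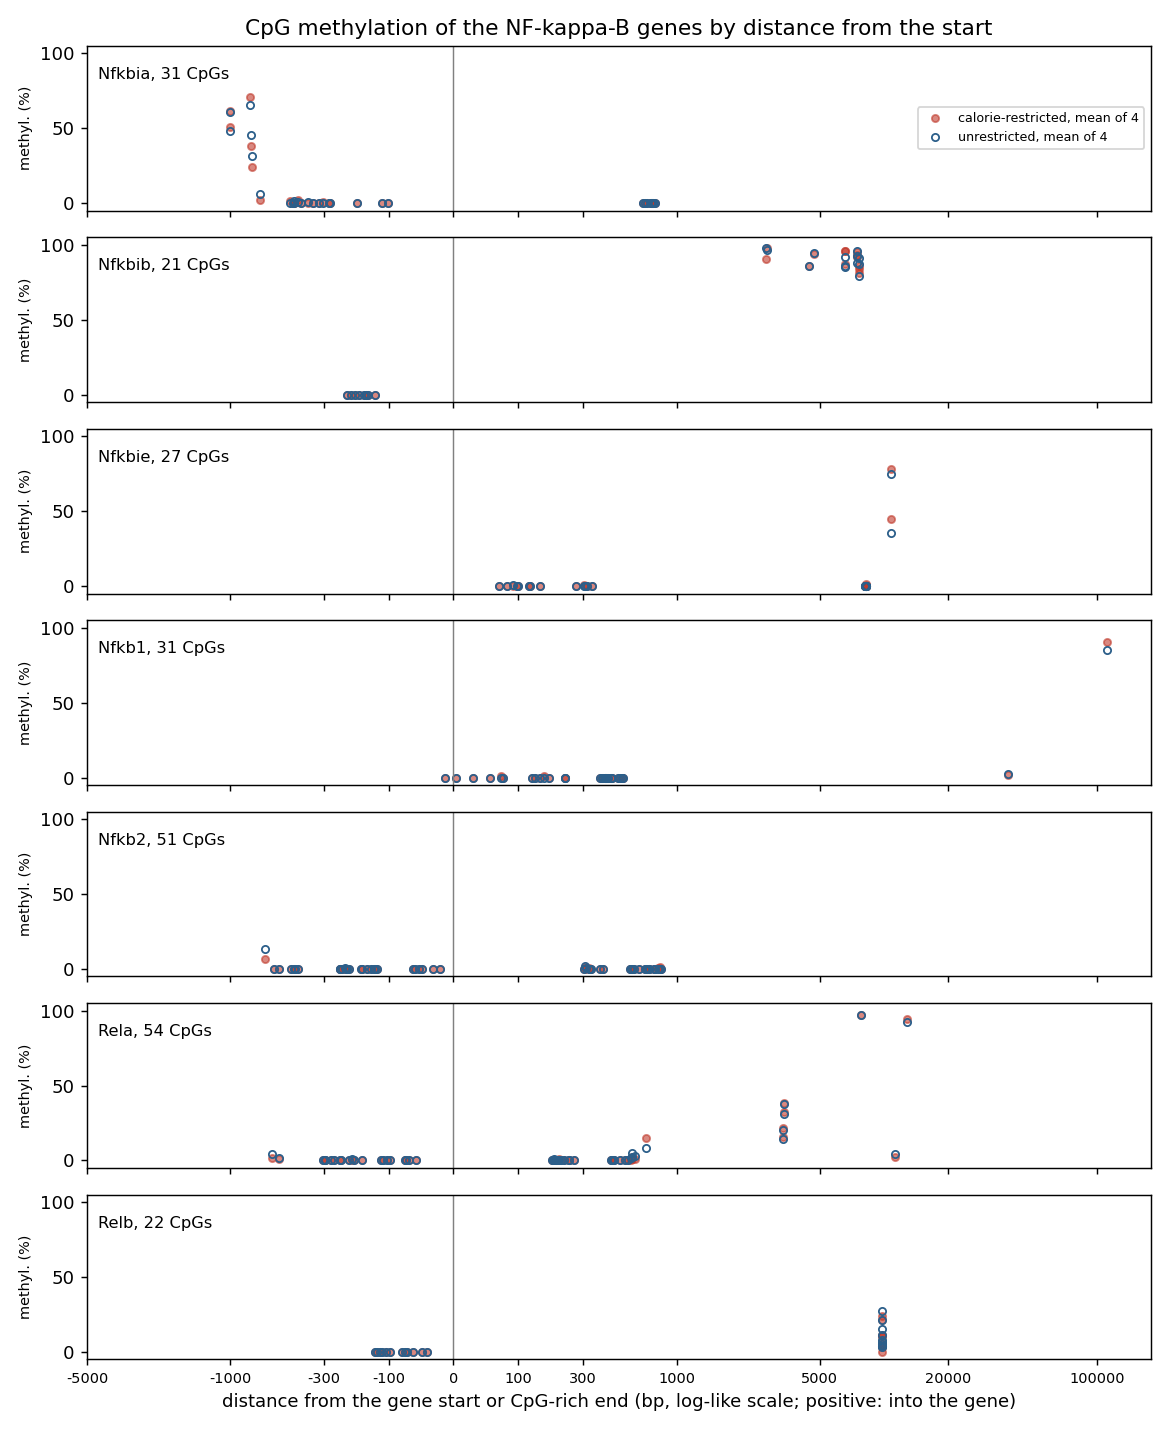
Mean methylation (percent) of the 237 shared CpGs in 7 panels, 1 per gene, by distance in bp from the gene start or CpG-rich end on a log-like scale, with filled points for the mean of 4 restricted and open points for the mean of 4 unrestricted libraries. CpGs within 1 kb of the start are near 0% except upstream of Nfkbia (group means up to 70.6%) and at single CpGs of Nfkb2 and Rela (group means up to 13.3% and 14.9%). Group means up to 98.1% appear farther inside.

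No unit of the other 6 genes passed the test. Of their 206 shared CpGs 57 had both methylated and unmethylated reads and could be tested, of their 14 tiles 12 and of their 6 windows 4, and 0 were called in each case (smallest adjusted p of 0.622, 0.773 and 0.676; 3 CpGs, 0 tiles and 0 windows at an unadjusted p under 0.05). With 0.0997% of CpGs, 0.0177% of tiles and 0.133% of windows called over all genes, a count of 0 among so few units is near the background. At an unadjusted p under 0.05 were 5.62% of all CpGs, 6.32% of all tiles and 6.91% of all windows. limma on M-values (log2 ratios of methylated to unmethylated reads) called 0 of each kind over all genes, so its count of 0 here adds nothing. The median difference was -0.287 points over the 57 CpGs and 0.0160 points over the 12 tiles, against -0.143 and -0.0116 points over all those tested. The CpG with the largest difference, 28760039 in Nfkbib, was at 92.5%, 100.0%, 94.7% and 95.7% in restricted libraries 1 to 4 and at 77.8%, 90.4%, 90% and 83.3% in unrestricted ones. All restricted values were higher, on 14 to 52 reads, with a difference of 10.3 points that missed the threshold (adjusted p = 0.622). In the same gene the CpG at 28763871 went the other way, at 90.5% ± 1.45 and 97.6% ± 1.73, also without overlap (adjusted p = 0.622). How often the groups do not overlap over all CpGs is not given here. The CpG of smallest p was 19619570 in Relb (0% and 3.04% ± 4.16), 5638228 in Rela (14.9% ± 5.54 and 8.01% ± 5.04), 46305065 in Nfkb2 (0.500% ± 1 and 0%), 135691903 in Nfkb1 and 45563944 in Nfkbie (each 1.32% ± 2.63 and 0%). All had an adjusted p of 0.622 and groups that overlapped.

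**Figure D4:**
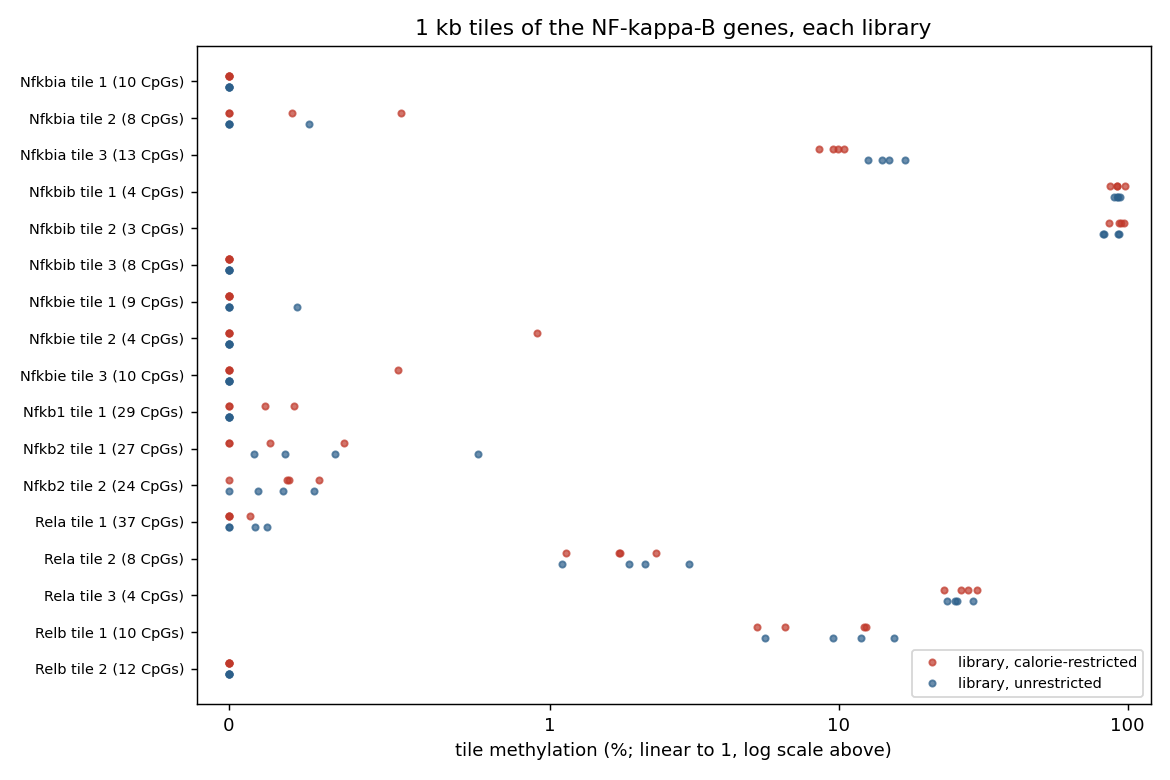
Methylation of the 17 tiles of the NF-kappa-B genes in percent (linear to 1%, log scale above), with 1 point per library in red for restricted and in blue for unrestricted libraries and tiles numbered by position within each gene. Both groups overlap in 16 tiles, and in Nfkbia tile 3, the one across the Gm36634 start, the restricted libraries lie lower (9.62% against 14.6% on average). The CpGs of tile 3 lie in the window by which the gene was chosen. The share of all tiles whose groups do not overlap is not given here.

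Other genes of the pathway were also low at their starts. Of 68 listed genes 40 had a window, and 39 of these were under 5%. The exception was Tlr3, a receptor of double-stranded RNA, at 12.7% ± 3.54 and 14.9% ± 4.24. Windows could be tested for 4 receptor or ligand genes, 10 adaptor genes, 5 kinase genes, 4 other Rel and inhibitor genes, 8 ubiquitin and feedback genes and 5 target genes, and 0 of these 36 were called in either direction (1 had an unadjusted p under 0.05). Over all genes 0.133% of windows were called and 6.91% had an unadjusted p under 0.05. The median difference was -0.0367 points, against -0.00527 points over all windows. The smallest p belonged to Birc3, a ubiquitin ligase of the receptor complexes (0.164% ± 0.236 and 0.558% ± 0.256). It was followed by Nfkbid, an atypical nuclear inhibitor (0.329% ± 0.438 and 0%), and Rbck1, a part of the linear ubiquitin ligase (0% and 0.0855% ± 0.107), all with an adjusted p of 0.676. Of 94 tested tiles of the list 0 were called and 4 had an unadjusted p under 0.05, against 0.0177% and 6.32% of all tiles.

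Among 549 windows of at least 5 CpGs and 2 to 50% mean level, those that followed the pooled Nfkbia level most closely over the 8 libraries belonged to Amn, a cubilin partner of the proximal tubule (Pearson r = 0.903), Bpi (0.899), Cyp26c1, a retinoic acid hydroxylase (0.883), and Nfs1 and Romo1, which share their CpGs (0.876). These r values are the highest of many and are given as a description over 8 libraries in 2 groups. As fixed by this choice, the restricted means were lower, with differences of -3.89, -11.3, -3.53 and, for Nfs1 and Romo1, -3.09 points, and at common read shares of -3.16, -12.4, -3.03 and -2.98 points. At Nfkbia the corresponding values were -3.96 and -0.343 points.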

How the data were processed

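Per the submitters' processing notes, reads were processed with Trim Galore 0.3.3, cutadapt, FastQC, Bismark 0.13.1 and methylKit on build mm10; the sources used here do not give their order or settings. The deposited files give, for each CpG cytosine, the count of covering reads and the percent of them called methylated, with 1 read as the lowest count. Methylated reads were count times percent, rounded (within 0.0488 of a whole number up to 1000 reads), and strands were added per CpG. All 66131 shared CpGs inside listed promoters read CG in the RefSeq sequence (GRCm38).

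Every CpG, tile and window with both kinds of reads got a quasi-binomial logistic fit with diet as its term. The F test of diet took the Pearson dispersion after moderation by a port of limma's squeezeVar, not under 1, with Benjamini-Hochberg adjustment over all units of that kind; an adjusted p under 0.05 was a call. Windows reach from 1000 bp before to 500 bp after the first listed start, or lie at the end richer in CpGs. The model was also run on simulated tiles, with changes placed only at intermediate levels, so that run does not cover units near 0%. Its outcome is not given here. As an alternative, limma 3.58.1 was run on M-values. Levels are means of 4 library levels with SD, and differences are restricted minus unrestricted. At the Nfkbia CpGs inside Gm36634, 10 to 55 reads per library limit the precision. Members and lists were chosen with earlier results of these data known.

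The 7 genes are described whatever their p, with the tile and CpG of smallest p per gene; of the pathway list the 3 windows of smallest p are named, and the 5 windows closest to Nfkbia by Pearson r, passing over Gm and Rik models. Alternatives changed the read minimum, test, dispersion, block, coverage, tile and window sizes and libraries; 3 were added after the values were seen. The same replicate numbers occur in both groups, but the labels give no shared litter or batch. The result of 1 listed marker gene is not reported here.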

Additional observations from a re-analysis of the deposited data

Results flagged for a closer look

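In groups of 4 libraries, 1 value can stand far from the other 3, which chance gives in about 1 in 20 groups of continuous values. That rate does not hold for levels near 0%. There, 1 library that holds all methylated reads of its group is flagged by construction, even with a single read. At 7 window or tile values 1 library held all methylated reads of its group and the others were at 0%. These were the Nfkbie window (0.287% in restricted library 2 and 0.166% in unrestricted library 2), the Nfkbie tiles from 45555001 (0.214% in unrestricted library 2), 45556001 (0.962% in restricted library 2) and 45563001 (0.526% in restricted library 2), the Nfkbia tile from 55492001 (0.251% in unrestricted library 4) and the Rela tile from 5637001 (0.0652% in restricted library 1). The Nfkbia CpG at 55493341 was at 7.14% in restricted library 1 and at 0% in the other 3 restricted libraries. Unrestricted library 4 stood apart at the Nfkbia CpGs between the starts, with 7 methylated reads against 0 to 1 and with 30.2 reads per 1000000 library reads against 19.3 to 21.1.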

How the results depend on the processing

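The calls among the 6 other NF-kappa-B genes stayed at 0 for CpGs, tiles and windows, and at 0 for tiles and windows of the pathway list, under every alternative run. The Nfkbia window difference of -3.96 points was -4.42 to -3.21 without 1 library. It was -0.00167 points at a read minimum of 20, -0.410 points with equal weight per CpG, and 0.0558 points in a window of 500 bp outside and 250 bp inside the gene, which holds only the CpGs between the starts. Of the alternatives added after the values were seen, common read shares gave -0.343 points, the CpGs between the starts 0.0558 points and those inside Gm36634 -0.139 points. The part added by the CpGs inside Gm36634, -4.03 points, was -0.481 points with equal weights. The mean of differences within replicate number (replicate block) equals the difference of the group means by arithmetic, so its -3.96 points is no separate check. The fit with the replicate block called 0 CpGs, tiles and windows among the 6 genes and 0 over all genes. Same-numbered libraries did not deviate together (correlations of -0.106 to 0.0194 over tiles). The Relb tile turned from -1.56 points to 0.0644 points without unrestricted library 2 (-3.26 points without unrestricted library 1) and to 1.67 points without restricted libraries 1 and 2.

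Counts over all genes moved more than those of the members. Against 191 CpGs, 6 tiles and 15 windows, limma and the dispersion of each unit alone called 0 of each. A read minimum of 5 called 2 tiles and 25 windows, and 20 reads called 103 CpGs, 2 tiles and 30 windows. Leaving out 1 library gave 134 to 746 CpGs, 0 to 24 tiles and 10 to 42 windows. Leaving out restricted libraries 1 and 2 gave 673 CpGs and 7 windows. The causes were not tested.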

Other observations

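Values outside the rule for named genes, chosen after they were seen, are given for the pathway list. A tile of Tradd, the adaptor of tumour necrosis factor receptor 1 (chromosome 8, 105254001 to 105255000; 17 CpGs), had the smallest p of the list's tiles. It was at 6.70%, 5.04%, 5.71% and 8.33% in restricted libraries 1 to 4 and at 3.48%, 3.07%, 4.27% and 2.51% in unrestricted ones. All restricted values were higher, and the difference of 3.12 points missed the threshold (logistic model, adjusted p = 0.264). A tile of Traf6, the ubiquitin ligase adaptor of interleukin 1 and Toll-like receptors (chromosome 2, 101679001 to 101680000, 5 CpGs), was at 5.40% ± 3.18 and 10.0% ± 0.614, without overlap (adjusted p = 0.773). How often the groups do not overlap over all tiles is not given here.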
